A study of Mus musculus with 2 samples.

Results

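The 10 transporter genes here encode amino acid carriers of the plasma membrane of activated lymphocytes or, for Slc3a2, a chain that brings them there. They were taken by name, as every probe set whose platform annotation names only Slc7a5, Slc3a2, Slc7a11, Slc7a6, Slc7a1, Slc1a4, Slc1a5, Slc38a1, Slc38a2 or Slc43a1. The rule found 20 probe sets among the 45101 on the array, and each of the 10 genes had at least 1. The rule itself uses no measured value, although the genes were proposed with earlier results of these data known.

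RNA came from male mice on a C57 background, 1 sample titled mir155KO, for knockout of the microRNA miR-155, and 1 sample titled mir155WT, and each was read on 1 Affymetrix 3′ expression array. The labels call the cells B cells that were cultured and activated, but the growth protocol describes blood progenitors kept for 6 days in G-CSF with stem cell factor. Both samples, the wild-type one included, had cycloheximide, a blocker of translation, at 100 ug/ml for the last 8 min before harvest. With 1 array per label there is no replicate and no test, so each value is a single measurement. In such bulk RNA, fewer cells of a type and less RNA per cell cannot be told apart.

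The labels disagree over which array is which. Titles and genotype entries are followed here, while the source names give the opposite genotype to each array. Mir155hg, the host transcript of miR-155, had a log2 intensity of 10.88 on the array titled mir155KO and 6.63 on the array titled mir155WT. The check of the targeted gene thus goes against the titles. On the array titled mir155WT the Mir155hg value lay below 6.71, the level for expression used here. Whether its probe set lies inside the deleted part was not determined. Differences below are the array titled mir155KO minus the array titled mir155WT on the log2 scale, and all their signs turn round if the source names are right. For the markers of the labelled cell type, all 11 measured B cell genes reached the level for expression, as did 7 of 8 plasma cell, 7 of 8 T cell, 9 of 12 macrophage and monocyte, 5 of 8 dendritic cell, 3 of 11 neutrophil and 2 of 8 stem and progenitor genes. That level is the median over probe sets, and 10717 of all 18193 genes reached it. It does not by itself show which cells were present.

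Lymphocytes that enter division must import amino acids for protein synthesis, and they meet this need by placing more transporters on their surface. Several of these carriers work as pairs, in which a heavy chain, CD98, brings 1 of several light chains to the membrane, and the light chain does the transport. The carriers also depend on one another, because exchangers such as LAT1 export glutamine that other carriers brought in to import leucine, and leucine inside the cell activates the growth kinase mTORC1. Transcription of many of these genes is known to be driven by MYC during activation and by ATF4 when amino acids are short. Slc7a11 is also a known target of NRF2, the main activator of antioxidant genes.

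The sequences that bear on these regulators are given first. The mature strand of miR-155, the microRNA under study, is printed with its seed (bases 2 to 8) in capitals, because the seed is the part that pairs with target transcripts. It lies on GRCm38.p6 chr16:84714143-84714165, plus strand.
miR-155-5p: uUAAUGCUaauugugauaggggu

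Promoter windows from RefSeq (GRCm38.p6, 250 bases before to 50 after an annotated start) were matched for 7 of the 10 genes, in 9 windows. Some of these starts, those of the Slc7a11 and Slc43a1 windows printed below among them, lie inside the span of the gene and are not its outermost end. The core of the amino acid response element through which ATF4 acts, TGATGNAA, was searched on both strands. It occurred in 2 of the 7 genes, Slc7a11 and Slc1a4. By window it occurred in 2 of the 9, and in 3.97% of all 32851 windows. In Slc7a11 it occurred 2 times, starting 66 and 47 bases before the start, in opposite orientation. The 250 bases before that start, chr3:50443614-50443863 on the minus strand, are shown because 2 copies face each other there. In Slc1a4 the single copy spans the start itself and is shown within chr11:20332699-20332728 on the minus strand. Capitals mark the matches.
Slc7a11: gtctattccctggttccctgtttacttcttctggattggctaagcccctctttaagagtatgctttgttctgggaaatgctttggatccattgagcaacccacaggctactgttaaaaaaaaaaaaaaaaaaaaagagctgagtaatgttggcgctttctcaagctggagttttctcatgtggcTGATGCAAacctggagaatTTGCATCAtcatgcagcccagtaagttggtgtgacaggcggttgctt
Slc1a4: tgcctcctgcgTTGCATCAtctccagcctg

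The E-box CACGTG, which MYC and MAX bind, reads the same on both strands. It occurred in 1 of the 7 genes, Slc43a1, and by window in 1 of the 9 and in 7.15% of all windows. It is shown in capitals within chr2:84840247-84840276 on the plus strand. The core of the antioxidant response element that NRF2 and BACH1 bind was searched on both strands as TGACNNNGC. It occurred in 4 of the 7 genes, namely Slc43a1, Slc7a1, Slc7a6 and Slc38a2. By window it occurred in 5 of the 9, and in 12.4% of all windows. Overlapping windows of Slc7a6 hold the same match, so that site entered the window count more than once. The exact pattern TGACNNNGC was not found in the window of Slc7a11, and variants of it were not searched. A match is only a description of the sequence.
Slc43a1: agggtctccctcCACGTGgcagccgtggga

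All 10 transporters were expressed on both arrays and differed little between them. A gene was represented by its brightest probe set. It counted as expressed where its mean over both arrays reached 6.71, the median over every probe set other than the array controls. Of all 18193 genes, 10717 did so. Of the 10 genes, 8 were higher and 2 lower on the array titled mir155KO, with a median difference of 0.10, against 0.03 over all 10717 expressed genes. Of all expressed genes 56.9% were higher and 42.1% lower, and 106 had a difference of 0. The differences of the 10 genes ran from -0.21 for Slc38a2 to 0.25 for Slc7a6.

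These sizes were set against a technical yardstick, the disagreement between the brightest and next brightest expressed probe sets of the same gene. Over 4906 genes its median was 0.084 and its 95th percentile 0.31. More than the median disagreement separated the arrays for 5 transporters that were higher (background 33.9% of expressed genes) and for 1 that was lower (background 23.3%). None of the 10 passed the 95th percentile, which 8.54% of expressed genes did. None differed by 0.5 or more, as 0.681% of expressed genes did upward and 1.31% downward.

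**Figure D1:**
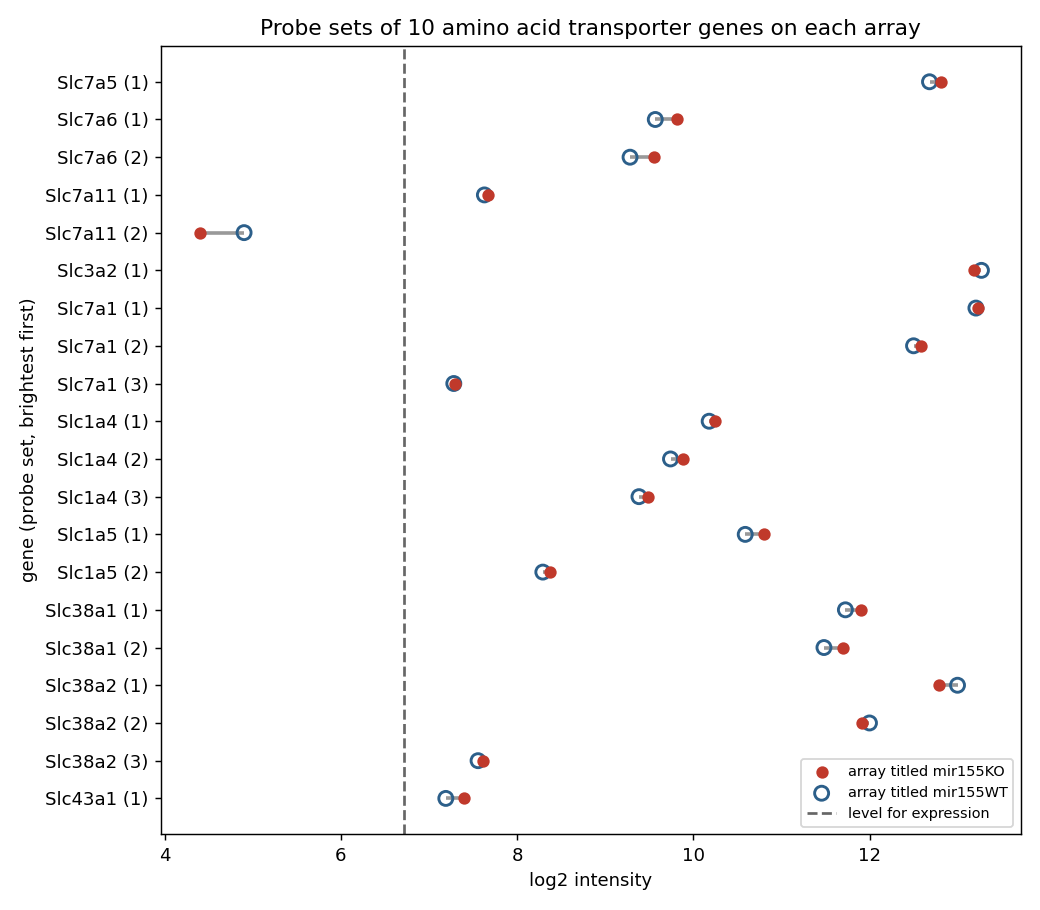
Log2 intensity of each of the 20 probe sets (rows, grouped by gene, brightest first) on the array titled mir155KO (filled points) and the array titled mir155WT (open points), with the level for expression as a dashed line. The widest gap is that of the second Slc7a11 probe set, at 0.50, and 19 of the 20 probe sets lie right of the line. The brightness of different probe sets depends on their probes, so rows are not compared with each other.

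CD98 and its light chains are taken first. Slc7a5, the light chain LAT1 that imports leucine and other large neutral amino acids, had levels of 12.81 on the array titled mir155KO and 12.68 on the array titled mir155WT, a difference of 0.13 or 1.09-fold. Its only probe set thus differed by more than the median disagreement and stood at percentile 75.5 of the differences of all expressed genes. Slc3a2, the heavy chain of CD98, had levels of 13.19 on the array titled mir155KO and 13.27 on the array titled mir155WT. It was lower on the array titled mir155KO by 0.08, or 1.06-fold, which is within the median disagreement, and it too rests on 1 probe set.

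Slc7a6, the light chain y+LAT2 that exchanges arginine for glutamine, was the highest of the 10. Its brightest probe set read 9.82 on the array titled mir155KO and 9.57 on the array titled mir155WT, a difference of 0.25 or 1.19-fold. Its other probe set read 9.55 on the array titled mir155KO and 9.28 on the array titled mir155WT, a difference of 0.27. The 2 probe sets therefore agree to 0.023, and the gene stood at percentile 92.4, with 810 expressed genes above it.

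Slc7a11, the light chain xCT that imports cystine in exchange for glutamate, hardly differed. Its brighter probe set read 7.67 on the array titled mir155KO and 7.63 on the array titled mir155WT, a difference of 0.04 at percentile 55.1. A dimmer probe set read 4.40 on the array titled mir155KO and 4.90 on the array titled mir155WT. That difference of -0.50 lies below the level for expression on both arrays, and it alone turned the gene's value to -0.23 when all probe sets were averaged.

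Among the other light chains that are known to pair with CD98, chosen after the values were seen, only Slc7a7 was expressed. Slc7a7, y+LAT1, read 8.01 on the array titled mir155KO and 7.96 on the array titled mir155WT, a difference of 0.05. Slc7a8 and Slc7a10 were below the level for expression on both arrays. Of the expressed light chain genes, Slc7a5 and Slc7a6 differed by more than the median disagreement, while Slc7a11, Slc7a7 and the heavy chain gene Slc3a2 lay within it.

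Slc7a1, the arginine and lysine carrier CAT1, which also serves as the receptor of ecotropic mouse leukaemia virus, was the closest to equal. Its brightest probe set read 13.23 on the array titled mir155KO and 13.21 on the array titled mir155WT, a difference of 0.02. The differences of its other probe sets were 0.09 and 0.01, so all 3 were near 0, and the sign of the brightest turned to just below 0 when the median difference or a loess curve was subtracted.

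The sodium-coupled SLC1 carriers were both higher on the array titled mir155KO. Slc1a5, ASCT2, a main route of glutamine into dividing lymphocytes, read 10.80 on the array titled mir155KO and 10.59 on the array titled mir155WT, a difference of 0.21 or 1.16-fold at percentile 89.1. Its second probe set differed by 0.08, from levels of 8.37 on the array titled mir155KO and 8.29 on the array titled mir155WT. Slc1a4, ASCT1, which carries alanine, serine and cysteine, read 10.25 on the array titled mir155KO and 10.18 on the array titled mir155WT, a difference of 0.07. Its other probe sets differed by 0.14 and 0.11, so all 5 probe sets of the SLC1 pair had the same direction.

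The 2 SLC38 carriers, which bring in glutamine and other small neutral amino acids with sodium, had opposite signs although their genes are neighbours on chromosome 15 with 0 protein-coding genes between them. Slc38a1, SNAT1, read 11.90 on the array titled mir155KO and 11.73 on the array titled mir155WT, a difference of 0.17 or 1.13-fold, in a probe set of the _s_at type, whose probes may match more than 1 transcript. Its plain probe set differed by 0.21, from levels of 11.69 on the array titled mir155KO and 11.48 on the array titled mir155WT.

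Slc38a2, SNAT2, which cells are known to induce when amino acids run short, was the lowest of the 10. Its brightest probe set read 12.79 on the array titled mir155KO and 13.00 on the array titled mir155WT, a difference of -0.21, or 1.16-fold lower on the array titled mir155KO, at percentile 8.83. The middle probe set differed by -0.09 and the dimmest by 0.06. It was the only 1 of the 6 genes with several expressed probe sets in which they did not all share a direction. The mean of its 3 probe sets was -0.08.

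Slc43a1, LAT3, a sodium-independent carrier of branched-chain amino acids, read 7.40 on the array titled mir155KO and 7.19 on the array titled mir155WT. The difference of 0.21, or 1.15-fold, rests on a single probe set not far above the level for expression. Over all members, 16 of the 19 expressed probe sets were higher and 3 lower on the array titled mir155KO. Those of a gene read the same RNA and are no replicates. Counted by gene, 56.9% of all expressed genes were higher, and the share over all expressed probe sets was not calculated.

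**Figure D2:**
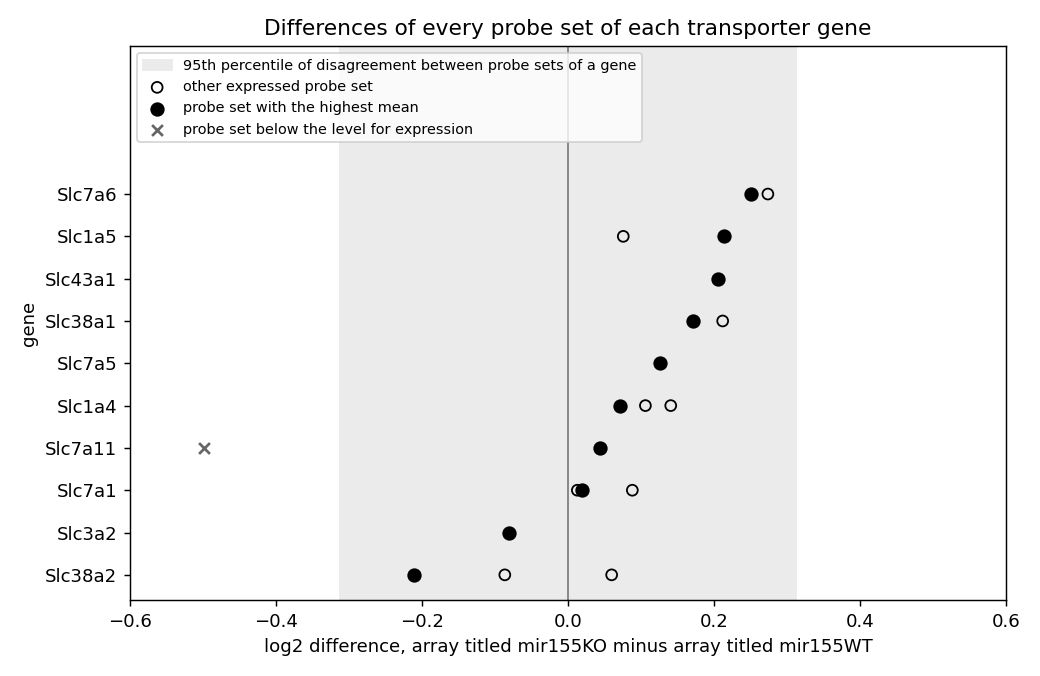
Log2 difference of every probe set of the 10 genes (rows), array titled mir155KO minus array titled mir155WT. Filled points are the brightest probe set of each gene, open points its other expressed probe sets and the cross the Slc7a11 probe set below the level for expression, at -0.50. All expressed probe sets lie inside the shaded band of 0.31 either side of 0.

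Other carriers of amino acids, from a list of 30 that includes lysosomal and mitochondrial ones, lay close to the 10. Of 21 that were expressed, 14 were higher and 7 lower on the array titled mir155KO, with a median of 0.05. The highest was Slc25a15 (0.37), the mitochondrial ornithine carrier, and the lowest Slc1a3 (-0.23), a glutamate transporter. None of the 21 reached 0.5. Enzymes that use or make amino acids had a median of 0.11, with 18 of 22 expressed genes higher and 4 lower. Over all expressed genes 56.9% were higher and 42.1% lower. The enzymes ran from Gpt2 (-0.08), an alanine aminotransferase, to Shmt1 (0.47), the cytosolic serine hydroxymethyltransferase.

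By list median, regulators and fellow targets of the transporters were mostly near 0, while single genes differed more. The list of ATF4 and its amino acid response genes, some of which are also in the enzyme list above, was expressed in all 32 members. Of these, 19 were higher and 13 lower on the array titled mir155KO. The shares over all expressed genes were 56.9% higher and 42.1% lower. The median of the list, 0.02, was just below 0 under 3 other scalings and was near that of all expressed genes. Atf4 itself read 14.21 on the array titled mir155KO and 14.23 on the array titled mir155WT. The lowest of the list was Cebpb (-0.34), a basic leucine zipper factor, and the highest Aldh1l2 (0.45), a mitochondrial folate enzyme.

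Myc read 12.29 on the array titled mir155KO and 12.12 on the array titled mir155WT, a difference of 0.17. It was the highest of the 12 genes of the MYC network, of which 6 were higher and 6 lower (median 0.03, just below 0 under each of 3 other scalings). The lowest was Mxi1 (-0.43), a MYC antagonist. In the list of leucine sensing and mTORC1 genes 17 of 28 were higher and 11 lower (median 0.02, just below 0 under the same 3 scalings). Rheb (-0.67), the GTPase that switches mTORC1 on, was the 1 member that differed by 0.5 or more, with levels of 12.51 on the array titled mir155KO and 13.17 on the array titled mir155WT. Depdc5 (0.19), part of a brake on the pathway, was the highest. For comparison with both lists, 56.9% of all expressed genes were higher, 42.1% lower and 1.31% lower by 0.5 or more.

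The NRF2 and glutathione list, to whose pathway Slc7a11 belongs, was the one of these that stood lower. Among all expressed genes 42.1% were lower, and 1.31% were lower by 0.5 or more. Of the 16 expressed members of the list, 14 were lower and 2 higher on the array titled mir155KO, with a median of -0.32. By 0.5 or more, 6 were lower. These were Bach1 (-1.06), the haem-regulated repressor of antioxidant genes, Hmox1 (-1.03), haem oxygenase, Nqo1 (-0.96), a quinone reductase, Gsr (-0.87), glutathione reductase, Nfe2l2 (-0.69), which encodes NRF2, and Srxn1 (-0.56), sulfiredoxin. Chac2 (0.35), which degrades glutathione, was the highest.

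Of the enzymes that make glutathione from the cysteine that xCT supplies, picked after their values were seen, the ligase subunits were below 0 and the synthetase was not. Gclm, a subunit of glutamate-cysteine ligase, read 11.03 on the array titled mir155KO and 11.41 on the array titled mir155WT. Gclc, its catalytic subunit, read 10.27 on the array titled mir155KO and 10.48 on the array titled mir155WT. Gss, glutathione synthetase, which catalyses the last step, read 8.59 on the array titled mir155KO and 8.57 on the array titled mir155WT. Slc7a11 stood at 0.04 in its expressed probe set, beside the list's median of -0.32. Probe sets also varied within the list: the brighter Nfe2l2 set differed by -0.69 and the dimmer by 0.13, and those of Bach1 by -1.06 and -0.34.

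**Figure D3:**
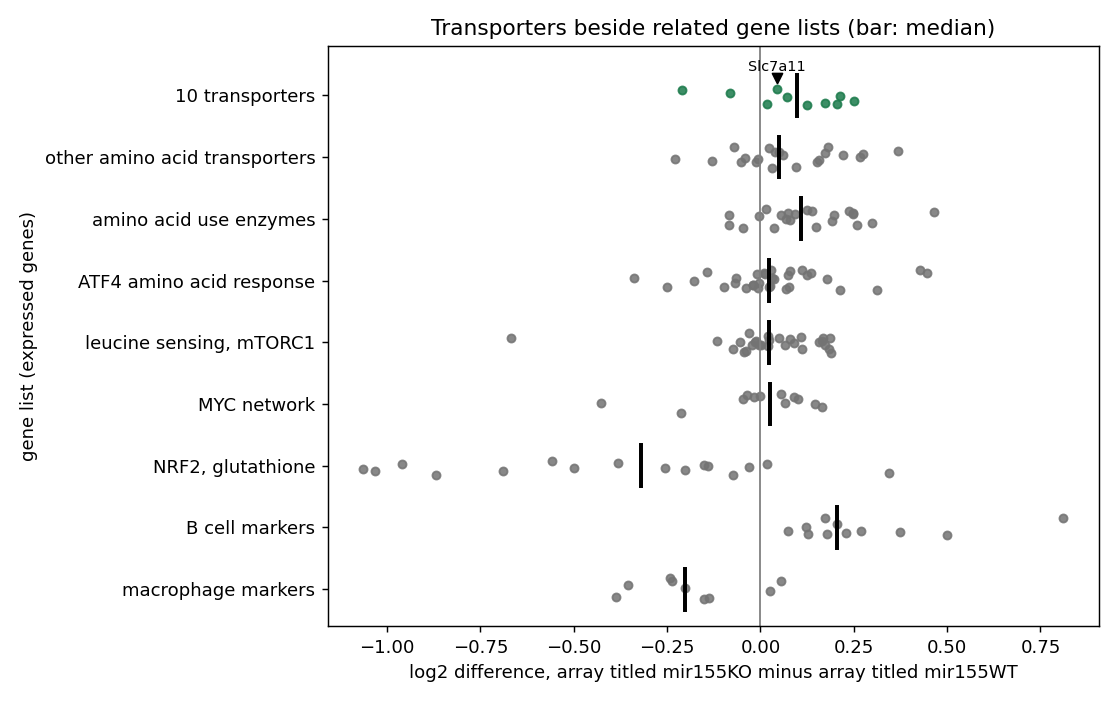
Log2 difference, array titled mir155KO minus array titled mir155WT, of the 10 transporters (top row, Slc7a11 marked) and of the expressed genes of 8 lists, with a bar at each median. The transporters lie between -0.21 and 0.25, while the NRF2 and glutathione list reaches -1.06 with a median of -0.32.

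Cell type markers also differed between the arrays. Among all expressed genes 56.9% were higher and 42.1% lower on the array titled mir155KO, with a median difference of 0.03. All 11 expressed B cell markers were higher on the array titled mir155KO (median difference 0.20), with a median level of 11.01 there and 10.88 on the array titled mir155WT. Of 12 macrophage and monocyte markers 9 were expressed, 2 higher and 7 lower (median difference -0.20), with median levels of 7.24 on both arrays. The part of such differences in those of the transporters and of the NRF2 list was not tested.

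The signs of 8 of the 10 transporters were the same in every way of processing tried, but several ways could hardly change them. Slc7a5, Slc43a1 and Slc3a2 have 1 probe set each, so averaging probe sets returned the same value. For Slc7a5 and Slc43a1, so did taking plain probe sets. The median subtracted from every gene was 0.03, and sorted values already lay within 0.063 before quantile normalization. These steps could therefore turn only small differences. Over 6 ways of processing, the difference ran from 0.20 to 0.26 for Slc7a6, from 0.15 to 0.21 for Slc1a5, from 0.14 to 0.21 for Slc38a1, from 0.18 to 0.21 for Slc43a1 and from 0.10 to 0.13 for Slc7a5. That of Slc38a2 ran from -0.24 to -0.08, and that of Slc3a2, which has no plain probe set, from -0.11 to -0.08 over 5. Slc1a4 stayed above 0 (0.03 to 0.11), and Slc7a1 (-0.01 to 0.04) and Slc7a11 (-0.23 to 0.04) fell on both sides of 0.

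**Figure D4:**
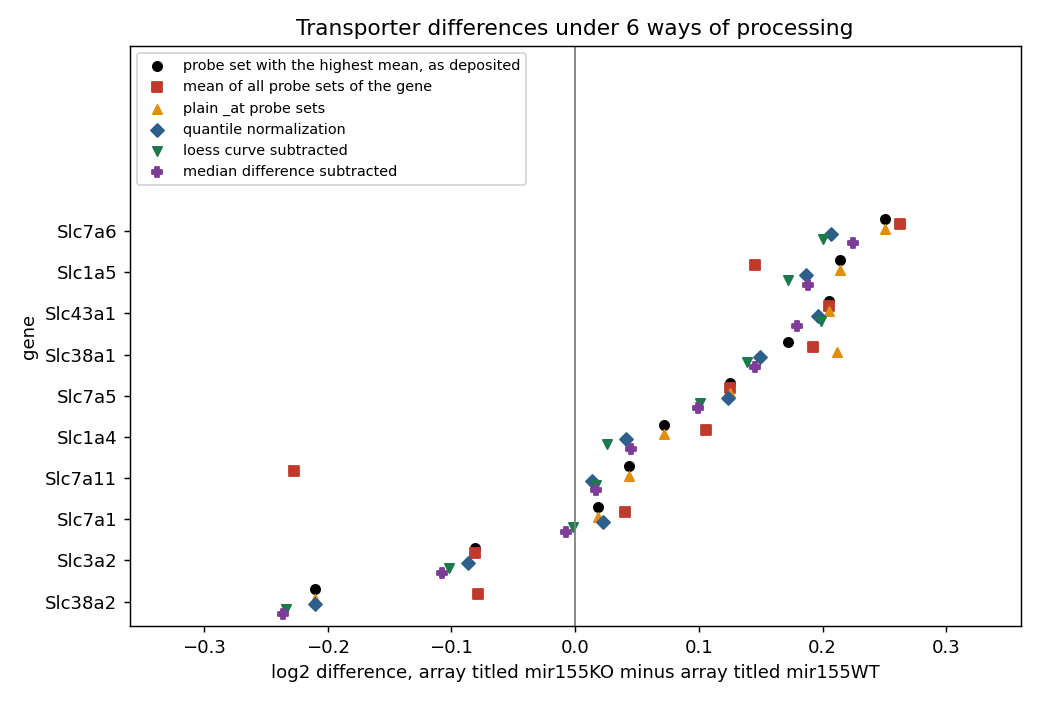
Log2 difference of each transporter gene, array titled mir155KO minus array titled mir155WT, under 6 ways of processing (markers). Apart from Slc7a11 and Slc7a1, each gene keeps to 1 side of 0, and Slc7a11 lies at -0.23 when its probe sets are averaged.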

How the data were processed

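Values of 45101 probe sets on 2 arrays were deposited as log2 intensities between 3.09 and 15.4; the unit was read from the values, and how the authors summarised and normalized them is not given in the sources used here. Once sorted, the values of both arrays lay within 0.063 of each other, so a difference in total RNA per cell would not show. Per the labels' protocols, an Affymetrix 3′ IVT Express kit gave the biotinylated cRNA. Probe sets were named from the platform annotation, and all 10 members matched RefSeq by Entrez number. Each gene took its singly named probe set with the highest mean (18193 genes, 10717 expressed). The number of arrays, 1 per label, limits the precision; no p-value was computed and no array could be left out. The members and lists were chosen with earlier results of these data known. Lists held other amino acid transporters, ATF4, NRF2, leucine sensing, enzymes that use or make amino acids, MYC network and 7 sets of cell markers. The lists overlap in part: the ATF4 list shares genes with the enzyme and leucine sensing lists. Flt3 is both a dendritic cell and a progenitor marker. A symbol that no probe set names alone was not analysed here. Named genes are the members, Mir155hg, Atf4, Myc, Nfe2l2, Bach1, and of each list the highest, the lowest and those differing by 0.5 or more. Outside this rule, Slc7a7, Slc7a8, Slc7a10, Gclm, Gclc, Gss and Slc7a6os were chosen after their values were seen. The calculation was run on simulated data with 200 genes shifted by more than any transporter differed. That run checks the arithmetic only and says nothing about differences of the size seen here. The alternatives tried were the average over a gene's probe sets, plain _at sets, quantile normalization, a loess curve (span 0.3), the median subtracted, no level filter and a 75th percentile filter. Python 3.11.15 was used with NumPy 2.4.6, pandas 2.3.3, matplotlib 3.10.9 and statsmodels 0.14.6.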

Additional observations from a re-analysis of the deposited data

How the results depend on the processing

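No paired analysis was possible because each label has 1 array. The median of the expressed transporters stayed above 0 under all 7 alternatives (0.06 to 0.13), and 6 to 8 were higher in each. None differed by 0.5 or more in any. The expressed transporters numbered 9 with averaged or plain probe sets, 8 with the 75th percentile filter and 10 otherwise. Averaging put Slc7a11 below the level for expression, so its negative value entered neither that median nor that count. The share over all expressed genes was not calculated for each alternative. With plain _at sets, where Slc3a2 has no value, 1 transporter was lower instead of 2. Slc7a11 turned to -0.228 when its probe sets were averaged, and Slc7a1 to -0.0021 with the loess curve and -0.0076 with the median subtracted. The list medians near 0 changed sign as follows. With quantile normalization, the loess curve and the median subtracted, ATF4 genes were at -0.0001, -0.0054 and -0.0028, leucine sensing genes at -0.0171, -0.0253 and -0.0042, and the MYC network at -0.01, -0.0244 and -0.0001. The MYC network was also at -0.0598 with the mean of probe sets and -0.0099 with plain sets. T cell markers were at -0.0109 without a level filter and -0.0609 with the 75th percentile filter. For near-zero values the cause was not tested; for Slc7a11 it is the averaging in of a probe set below the level for expression. By their brightest probe sets, Slc7a11 and Slc43a1 lay nearest to the level for expression.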

Other observations

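Slc7a6os, the gene next to Slc7a6, was read by a probe set at 7.94 on the array titled mir155KO and 8.12 on the array titled mir155WT, and by a dimmer one at 6.89 on the array titled mir155KO and 6.71 on the array titled mir155WT. Its probe sets differed by -0.18 and 0.18, so it showed no common direction with Slc7a6, whose probe sets differed by 0.25 and 0.27. Slc7a6os was chosen after its values were seen.

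Marker lists not described with the transporters gave the following values. As background, 56.9% of all expressed genes were higher and 42.1% lower. By 0.5 or more, 0.681% were higher and 1.31% lower. Of 7 expressed plasma cell markers 5 were higher on the array titled mir155KO and 2 lower (median 0.05); those past 0.5 were Prdm1 (-1.19), the driver of plasma cell differentiation, and Jchain (-0.56), and the highest was Slamf7 (0.45). Of 7 expressed T cell markers 4 were higher and 3 lower (median 0.04), from Cd3d (-0.12) to Cd2 (0.66), with Thy1 at 0.56. The 5 expressed dendritic cell genes had a median of -0.27, from Zbtb46 (-0.44) to Batf3 (0.37). The 3 expressed neutrophil markers ran from -0.07 for Camp to -0.05 for Lcn2 (median -0.05), and the 2 expressed progenitor markers were Flt3 (-0.27) and Hoxa9 (-0.12; median -0.19). Among B cell markers Spib (0.81) was the highest and Cr2 (0.08) the lowest, and among macrophage markers Ccr2 (0.06) and Tyrobp (-0.39).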
